A study of Homo sapiens with 6 samples.

Results

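The glutathione peroxidases are the enzymes that reduce hydrogen peroxide and lipid hydroperoxides with glutathione, and ferroptosis is the form of cell death that follows when peroxidised membrane lipids are not repaired. Values are given here for 10 genes of this defence among the 57123 genes of the count tables: the peroxidases GPX1, GPX2, GPX3, GPX4, GPX7 and GPX8, and the ferroptosis genes ACSL4, AIFM2, LPCAT3 and FTH1. The genes were taken by name, from a list drawn up with earlier results of these data known. For GPX4 the single exon bins and the genes on either side on chromosome 19 were examined as well.

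RNA was sequenced from HEK293, an established human embryonic kidney line, in 3 libraries of wild-type (WT) cells and 3 of MUL1(−/−) cells, in which the mitochondrial ubiquitin ligase MUL1 had been inactivated with CRISPR-Cas9. Both genotypes were grown in the same serum-supplemented DMEM, and no other treatment was named. The study's methods describe its quantitative data in general as coming from independent experiments. They do not say for these libraries whether the replicates were separate cultures or how many MUL1(−/−) clones were sequenced, so the p-values measure the spread between these libraries, which may be technical. Because whole cultures were sequenced, fewer cells of a kind and less RNA per cell cannot be told apart.

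The summed gene counts ran from 127015142 to 142803296 for WT and from 121917971 to 122441959 for the libraries labelled MUL1(−/−). Levels are given as CPM, the counts scaled to a common library size with TMM factors, and 1 count was worth 0.00707 to 0.00807 CPM. Log2 fold changes are those of the libraries labelled MUL1(−/−) over WT, each with its standard error (SE). MUL1 itself was at 15.4, 15.2 and 19.02 CPM in WT and at 18.7, 16.7 and 19.2 CPM in the libraries labelled MUL1(−/−) (log2 fold change 0.14, SE 0.10, edgeR adjusted p = 0.321), so its RNA level does not check the labels. Of the 7 markers fixed for the line, PAX2 was at 7.83 to 10.7 CPM in WT and at 1.93 to 3.35 CPM in the other genotype (log2 fold change −1.80). VIM, KRT8, KRT18 and NEFL were above 80 CPM in every library, with KRT8 at −0.93 and VIM at −0.34 on the log2 scale, and LHX1 (−0.55) and NEFM (1.06) were below 4 CPM. These 5 changes passed the edgeR adjusted p, and those of KRT18 and NEFL did not. Among markers of other cell types, ALB, GFAP, PTPRC and PECAM1 were below 1 CPM in every library. Of these, PTPRC of leukocytes (log2 fold change 1.94, edgeR adjusted p = 8.50e-04) and PECAM1 of endothelium (2.06, edgeR adjusted p = 0.00374) rose without overlap, to at most 0.415 and 0.277 CPM. DCN, of fibroblasts, rose from 1.14 to 1.22 CPM in WT to 2.61 to 3.42 CPM. The part of these differences in the results below was not tested.

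GPX4 is the peroxidase that reduces lipid hydroperoxides inside membranes, and its loss is a classical trigger of ferroptosis. GPX1 is the common cytosolic peroxidase, GPX2 an epithelial and mainly gastrointestinal form, and GPX3 a secreted form made largely by the kidney. GPX7 and GPX8 reside in the endoplasmic reticulum. ACSL4 activates polyunsaturated fatty acids and LPCAT3 inserts them into phospholipids, which supplies the lipids that can be peroxidised. AIFM2 (FSP1) regenerates reduced coenzyme Q, a radical trap that works beside GPX4, and FTH1 is the heavy chain of ferritin, which stores iron in an unreactive form.

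The 6 peroxidases fall into 2 kinds by the codon of the catalytic residue, and the coding sequence around that codon is shown because GPX4 and GPX3, which fell, belong to the selenocysteine kind, as do GPX1 and GPX2, which did not pass the test. The codon is in capitals, with 12 coding bases on either side, read 5′ to 3′ from GENCODE 29 transcripts (GRCh38). In GPX1, GPX2, GPX3 and GPX4 it is TGA, read as selenocysteine, and in GPX7 and GPX8 the codon aligned with that of GPX1 is TGC, for cysteine.
GPX1 (chr3:49358120-49358146, minus strand): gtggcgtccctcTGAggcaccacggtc
GPX2 (chr14:64942595-64942621, minus strand): gtggcttcgctcTGAggcacaaccacc
GPX3 (chr5:151025457-151025483, plus strand): gtggccagctacTGAggcctgacgggc
GPX4 (chr19:1105391-1105417, plus strand): gtggcctcccagTGAggcaagaccgaa
GPX7 (chr1:52606702-52606728, plus strand): gtggccagcgagTGCggcttcacagac
GPX8 (chr5:55161012-55161038, plus strand): gtggccagtgacTGCcaactcacagac
All 6 stretches are coding exon, and in GPX4 the selenocysteine is codon 73 of 197.

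GPX4 (ENSG00000167468; chromosome 19, 1103926 to 1106791, plus strand) was at 1377, 1251 and 1155 CPM in the 3 WT libraries and at 283, 267 and 273 CPM in those labelled MUL1(−/−). Every WT library was thus above every library of the other genotype, and the group means were 1261 ± 111 and 274 ± 8.13 CPM (SD, n = 3 each). WT RNA stood 4.60 times higher, a log2 fold change of −2.20 (SE 0.07, edgeR adjusted p = 1.53e-11). Of the 2046 genes with at least 100 CPM in WT, 6 had a lower log2 fold change. Among these 6 are MIDN and, by less than its SE, CNN2, neighbours of GPX4 described below. Ranked from the lowest log2 fold change, GPX4 was number 168 of all 25125 tested genes.

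GPX3 (ENSG00000211445; chromosome 5, 151020438 to 151028993, plus strand) was at 43.4, 39.8 and 46.8 CPM in WT. It was at 17.8, 15.3 and 20.5 CPM in the libraries labelled MUL1(−/−), with no overlap. The log2 fold change was −1.28 (SE 0.10, edgeR adjusted p = 2.42e-07), and all 20 of its exon bins that could be tested were lower. These bins share reads and sum to the gene's count, so they largely restate its fall.

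GPX1 (ENSG00000233276; chromosome 3, 49357176 to 49358600, minus strand), the second peroxidase by level per exon length, did not pass the test. It was at 190, 178 and 187 CPM in WT and at 192, 177 and 203 CPM in the other genotype, and these ranges overlap. The log2 fold change was 0.05 (SE 0.07, edgeR adjusted p = 0.647). GENCODE 29 gives this gene the type polymorphic pseudogene.

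GPX2 (ENSG00000176153; chromosome 14, 64939152 to 64942905, minus strand) had 35 to 107 counts a library. Its CPM were 0.441, 0.686 and 0.278 in WT and 0.846, 0.463 and 0.629 in the libraries labelled MUL1(−/−), overlapping ranges with a log2 fold change of 0.46 (SE 0.30, edgeR adjusted p = 0.253).

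Neither cysteine form passed the test. GPX8 (ENSG00000164294; chromosome 5, 55160118 to 55167071, plus strand) was at 29.7, 31.0 and 28.6 CPM in WT and at 30.7, 36.8 and 35.8 CPM in the other genotype. The lowest library labelled MUL1(−/−) lay within the WT range, and the log2 fold change of 0.21 (SE 0.08, edgeR adjusted p = 0.0615) missed the threshold. In 15 alternatives its adjusted p ran from 0.0146 to 0.200 and passed in 4. GPX7 (ENSG00000116157; chromosome 1, 52602372 to 52609051, plus strand) had 7, 10 and 5 counts in WT and 13, 3 and 3 in the other genotype. These counts were too few for the test.

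**Figure D1:**
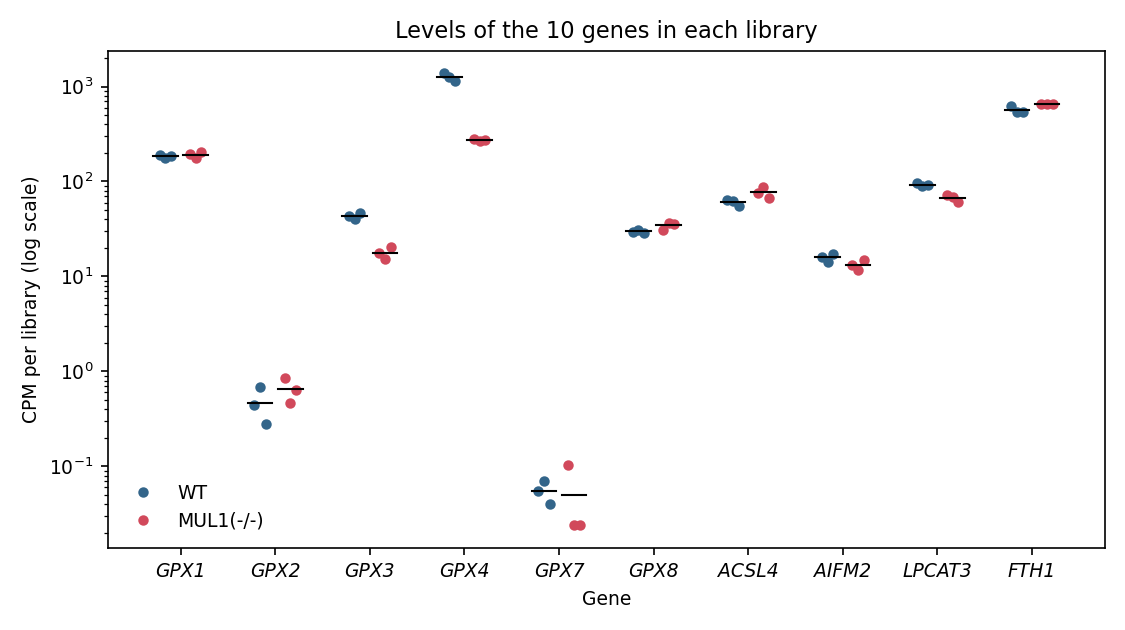
CPM of each of the 10 genes (x axis) in each library on a log scale (y axis), blue for WT and red for libraries labelled MUL1(−/−), with a black line at each group mean (n = 3). GPX4 dropped from 1155 to 1377 CPM down to 267 to 283 CPM, while GPX1 and GPX2 overlap between the genotypes.

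Summed over the selenocysteine forms, CPM was 1490 ± 112 in WT and 484 ± 20.8 in the libraries labelled MUL1(−/−) (SD, n = 3 each). The groups did not overlap, and the exact two-sided permutation p was 0.1, the smallest that 3 against 3 libraries can give. This sum largely restates GPX4, since GPX1 and GPX2 had positive log2 fold changes. The cysteine forms GPX7 and GPX8 together stood at 29.8 ± 1.23 and 34.5 ± 3.23 CPM (exact permutation p = 0.2). GPX4 supplied 82.9% ± 1.30 of the CPM of the 6 peroxidases in WT and 53.0% ± 1.55 in the other genotype. The share of GPX1 went from 12.2% ± 0.863 to 36.8% ± 1.27 (shares of summed CPM, not divided by length). Because a read is counted in every bin it touches, GPX4 with 37 bins is weighted up beside GPX1 with 12. These are therefore not shares of transcripts.

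Of the genes that supply peroxidisable lipids, one was higher and one was lower. ACSL4 (ENSG00000068366; chromosome X, 109629237 to 109733403, minus strand) was at 64.2, 62.3 and 54.8 CPM in WT and at 75.0, 88.0 and 67.1 CPM in the libraries labelled MUL1(−/−). Each of the latter was above each WT library. ACSL4 rose by a log2 fold change of 0.34 (SE 0.09, edgeR adjusted p = 0.00958), and all 31 of its tested bins had a positive fold change. The bins share reads and sum to the gene's count, so their common sign largely restates the gene. Without replicate 2 of the libraries labelled MUL1(−/−) the edgeR adjusted p was 0.0526 (log2 fold change 0.25). With the most counted bin alone it was 0.0536 (log2 fold change 0.26). Its bins carry an identifier joined with a second gene on the same strand, and only bins touched by ACSL4 exons alone were counted.

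LPCAT3 (ENSG00000111684; chromosome 12, 6976186 to 7018510, minus strand) was at 95.7, 89.2 and 92.2 CPM in WT and at 71.2, 69.3 and 60.7 CPM in the other genotype. The groups did not overlap, and LPCAT3 fell by 0.46 on the log2 scale (SE 0.08, edgeR adjusted p = 1.95e-04). Counting did not use strand, and bins that EMG1 on the opposite strand also touches held 58.5% of its counts. Over the unshared bins alone the log2 fold change was −0.57 (edgeR adjusted p = 2.24e-04). Its bins did not move evenly: 30 of 37 were lower and 7 higher. Those at 6977840 to 6978040 and 6978690 to 6979270 departed from the gene by 0.84 and 0.52 on the log2 scale (edgeR adjusted p = 6.28e-04 and 0.0208 over all bins), and both lie where EMG1 overlaps.

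AIFM2 (ENSG00000042286; chromosome 10, 70098223 to 70132934, minus strand) was at 15.9, 14.2 and 17.4 CPM in WT and at 13.1, 11.7 and 14.8 CPM in the libraries labelled MUL1(−/−). The ranges overlapped by 1 library on each side, and the log2 fold change of −0.26 (SE 0.11, edgeR adjusted p = 0.0657) did not pass. In 15 alternatives its adjusted p ran from 0.0129 to 0.299 and passed in 4, among them the fit with the replicate number as a block (edgeR adjusted p = 0.0237).

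FTH1 (ENSG00000167996; chromosome 11, 61959718 to 61967660, minus strand) was at 631, 545 and 535 CPM in WT and at 653, 657 and 654 CPM in the other genotype, 3 values within 4 CPM of each other. FTH1 rose by a log2 fold change of 0.20 (SE 0.07, edgeR adjusted p = 0.0376). The call did not hold with DESeq2 (adjusted p = 0.0602) or with its most counted bin (edgeR adjusted p = 0.0581). It also did not hold in 4 of the fits that left out 1 library, with an edgeR adjusted p of 0.0661 to 0.163. These were without WT replicate 2 or 3 or without replicate 1 or 2 of those labelled MUL1(−/−). Bins shared with BEST1 on the opposite strand held 55.5% of its counts, and the unshared bins gave 0.21 (edgeR adjusted p = 0.0407).

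Of the 10 genes, 9 passed the filter on low counts and GPX7 did not. GPX4 and GPX3 passed both the adjusted p threshold of 0.05 and an absolute log2 fold change above 1, both lower, where 3.87% of all tested genes were called lower and 8.11% in either direction. No member was called higher (background 4.23%). By the adjusted p alone, GPX4, GPX3 and LPCAT3 fell (background 18.7%) and ACSL4 and FTH1 rose (background 18.8%, or 37.5% in either direction). The libraries of the genotypes did not overlap for 5 of the 9 (background 48.5%), a share near that of all genes. The median log2 fold change of the 9 was 0.05, against −0.01 over all genes.

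Divided by exon length, the WT levels ran from GPX4 at 625 ± 55.2 CPM per kb through FTH1 at 281 ± 25.9 and GPX1 at 130 ± 4.09 to LPCAT3 at 19.6 ± 0.688, GPX3 at 13.7 ± 1.11, ACSL4 at 9.54 ± 0.785 and GPX8 at 7.70 ± 0.313. AIFM2 at 3.08 ± 0.306, GPX2 at 0.312 ± 0.137 and GPX7 at 0.0326 ± 0.00917 CPM per kb followed (SD, n = 3). In the libraries labelled MUL1(−/−) the order changed. FTH1 led at 323 ± 1.01 CPM per kb, GPX4 at 136 ± 4.03 and GPX1 at 134 ± 9.32 did not differ beyond their spread, and GPX3 at 5.64 ± 0.814 was below GPX8 at 8.90 ± 0.847. LPCAT3 at 14.2 ± 1.18 and ACSL4 at 12.1 ± 1.66 CPM per kb also overlapped there. A read is counted in every bin it touches, so these levels are raised in genes cut into many short bins, such as GPX4 with 37 bins in 2019 bases beside GPX1 with 12 in 1425.

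The exon bins of GPX4 show whether the whole transcript was lower. Of the annotated protein starts of GPX4, 3 are known for different destinations. The first 30 coding bases of each of these are shown because 1 of them lies in the bin that departed from the gene. A further annotated start, at 1105222 in 1 transcript, is not shown. The start codon is in capitals, and GRCh38 positions on the plus strand of chromosome 19 are those of its first base.
Long form with the mitochondrial leader (start codon at 1104044): ATGagcctcggccgcctttgccgcctactg
Short cytosolic form (start codon at 1104125): ATGtgcgcgtcccgggacgactggcgctgt
Nuclear form (start codon at 1104735): ATGggccgcgcgggcgcaggctcccccggg
The long and short forms share the first exon, and the short form continues across the first intron. The nuclear form starts in an alternative first exon within that intron.

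Of the 37 GPX4 bins, 33 passed the filter and all 33 were lower, by log2 fold changes of −3.07 to −1.94 with a median of −2.20. All 33 passed an edgeR adjusted p of 0.05 over all bins, and none overlapped between the genotypes. Among all genes, 18.7% were lower by the adjusted p and 24.4% were lower without overlap. The matching shares over all bins were not taken. Adjoining bins count many of the same reads, so the 33 are not independent and largely restate the fall of the gene. The 24 tested bins in exons of the principal transcript lay between −2.47 and −1.94. The 6 bins in introns of that transcript lay between −2.55 and −2.13 at 0.841% ± 0.0214 of the gene's counts in WT and 0.828% ± 0.0852 in the libraries labelled MUL1(−/−). These bins are exons of other GPX4 transcripts in the annotation.

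Bin 17, 1105403 to 1105405, is exactly the TGA codon printed above. Its counts were 8943, 9121 and 7398 in WT and 1840, 1765 and 1744 in the libraries labelled MUL1(−/−), a log2 fold change of −2.18 (SE 0.08). A read is counted in each bin it touches, so this value largely repeats those of the adjoining bins 16 and 18, which were at −2.18 each.

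A single bin departed from the gene, where 1.42% of all tested bins did. Bin 9 of GPX4, 1104706 to 1104929, holds the start codon of the nuclear form. It was at 10.5, 8.98 and 10.1 CPM in WT and at 1.20, 1.36 and 0.960 CPM in the other genotype, a log2 fold change of −3.07 (SE 0.11). That is 0.87 lower than the gene on the log2 scale (−0.87, edgeR adjusted p = 7.03e-11 over all bins). The other bins of that exon, numbers 7 and 8, had log2 fold changes of −2.29 and −2.48 and did not pass. Together the alternative first exon held 1.03% ± 0.0980 of the GPX4 counts in WT and 0.641% ± 0.0472 in the libraries labelled MUL1(−/−), a difference that mostly restates bin 9, whose share went from 0.786% ± 0.0806 to 0.428% ± 0.0783. Bins 3 to 6, in the first exon of the long and short forms, stood 0.15 to 0.26 above the gene on the log2 scale, none past the adjusted p.

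**Figure D2:**
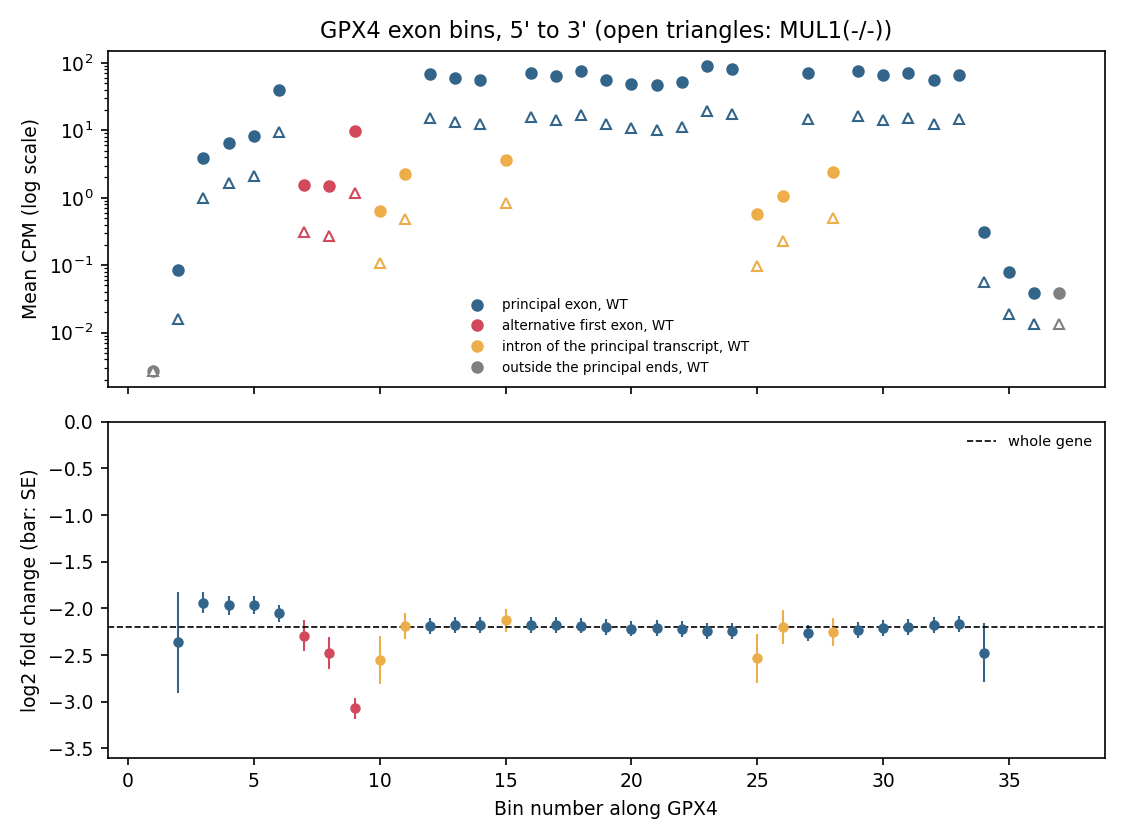
Exon bins of GPX4 numbered from the 5′ end (x axis), with mean CPM on a log scale in WT (filled circles) and in libraries labelled MUL1(−/−) (open triangles) above, and the log2 fold change with its SE for the 33 tested bins below. The dashed line is the whole gene at −2.20, and bin 9 in the alternative first exon is the lowest at −3.07.

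The neighbours of GPX4 were lower too. The 10 tested genes on each side span 300.442 kb of chromosome 19, from 999796 to 1300237, and 20 of 20 had a negative log2 fold change (background 51.1%). For 18 the edgeR adjusted p passed, all lower (background 18.7%), and 11 passed both thresholds (background 3.87%), 3 on the left and 8 on the right. None of the 20 overlapped between the genotypes (background for non-overlap on the lower side 24.4%). The median log2 fold change was −1.05, with −0.59 on the left and −1.44 on the right. Genes that overlap share reads here, so the 20 are not independent.

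On the left, POLR2E, a subunit shared by the RNA polymerases, was at 443, 409 and 405 CPM in WT and at 270, 253 and 295 CPM in the libraries labelled MUL1(−/−) (log2 fold change −0.62, SE 0.07, edgeR adjusted p = 9.12e-06). ARHGAP45 was at 15.9, 13.97 and 15.99 against 5.18, 4.77 and 5.50 CPM (−1.57, SE 0.10). Shared bins held 32.8% of its counts, and the fold change was −2.35 over its unshared bins and −0.44 in its most counted bin. ABCA7, a lipid transporter, fell by 0.47 on the log2 scale (SE 0.08), but its most counted bin gave −0.05 (edgeR adjusted p = 0.824). CNN2, a calponin that binds actin, was at 127, 112 and 107 CPM in WT and at 25.5, 23.8 and 26.0 CPM in the other genotype. Its log2 fold change of −2.20 (SE 0.08) was that of GPX4. The unnamed gene ENSG00000279753 lies wholly in bins shared with other genes and gave the same −2.20.

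On the right, SBNO2, read from the minus strand, has its 3′ end 0.845 kb beyond that of GPX4 and was at 102, 94.9 and 78.8 CPM in WT and at 52.7, 53.2 and 58.5 CPM in the other genotype (log2 fold change −0.74, SE 0.09, edgeR adjusted p = 1.25e-05). STK11, the kinase LKB1, went from 259, 238 and 199 to 108, 107 and 127 CPM (−1.02, SE 0.09). CBARP was at −1.85 (SE 0.12), its divergent transcript CBARP-DT at −1.93 (SE 0.34) and ATP5F1D, a subunit of ATP synthase, at −0.62 (SE 0.09). The size of the change therefore differed between adjacent genes. Farther right, MIDN went from 210, 195 and 170 to 28.5, 27.3 and 37.3 CPM (−2.63, SE 0.11). CIRBP, a cold-inducible RNA-binding protein, was at −1.44 (SE 0.07), FAM174C at −1.08 (SE 0.13) and EFNA2 at −1.44 (SE 0.14). CIRBP-AS1 was at −4.11 (SE 0.13), with 53.3% of its counts in bins shared with other genes, so it cannot be told apart from CIRBP in them. Over its unshared bins, which no annotated exon of another gene touches, the log2 fold change of CIRBP-AS1 was −4.31 (edgeR adjusted p = 1.28e-11). CIRBP-AS1 lies within the span of CIRBP and strand was not used. Reads from introns of CIRBP are therefore not separated from it in those bins either.

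Of the 20 neighbours, 3 had a lower log2 fold change than GPX4: CIRBP-AS1, MIDN and, by less than its SE, CNN2. Over unshared bins, where GPX4 was at −2.20, ARHGAP45 at −2.35 was lower too and CNN2 at −2.19 was not. GPX4 lay 1.15 below the neighbours' median on the log2 scale (difference −1.15). Within each library, log2 CPM of GPX4 less the neighbours' median was 5.06, 5.04 and 4.93 in WT and 3.81, 3.80 and 3.47 in those labelled MUL1(−/−). The groups did not overlap, with means of 5.01 ± 0.0672 and 3.69 ± 0.193 and a change of −1.32 (exact permutation p = 0.1, the smallest possible). This median is over levels, and the genes in its middle differed between the genotypes. The change of −1.32 therefore depends also on which genes rank there. By the median of the log2 fold changes, GPX4 fell further than the middle of its neighbourhood but not further than each gene in it.

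**Figure D3:**
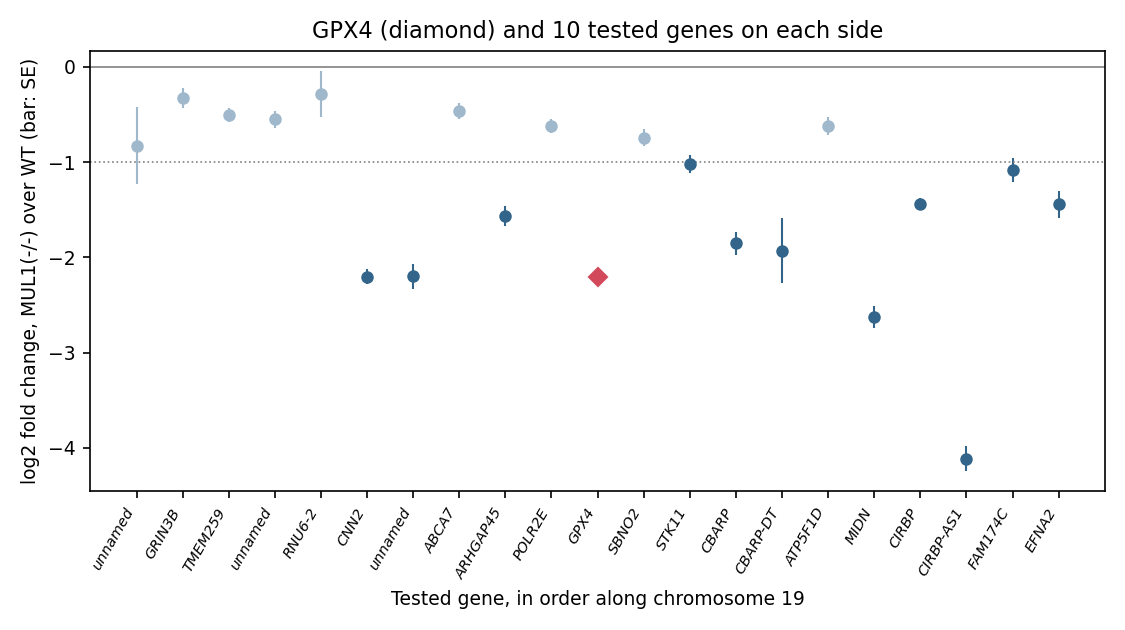
Log2 fold change with its SE (y axis) of GPX4 (red diamond) and the 10 tested genes on each side, in order along chromosome 19 (x axis), dark blue where both thresholds were passed. All 20 neighbours lie below 0, between −4.11 for CIRBP-AS1 and −0.29 for RNU6-2.

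Around the 10 genes, 59 other genes of the same defence and its supply lines were compared by role. Of these, 56 could be tested, and GPX5, GPX6 and FTMT had too few counts. ALOX15B was called higher (background 4.23%) and MBOAT1 lower (background 3.87%). By the edgeR adjusted p alone 17 rose, 15 fell and 24 did not pass, beside a background of 18.8% higher and 18.7% lower. The median log2 fold change was −0.03, close to the −0.01 of all genes.

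The counts by role, here and below, are by the edgeR adjusted p alone, by which 18.8% of all tested genes rose and 18.7% fell. The roles hold few genes, so their counts are not read as results about a role. Among the other peroxidases 2 of 7 rose and 2 fell. PRDX2, a cytosolic peroxiredoxin, went from 269, 257 and 262 to 412, 394 and 392 CPM (log2 fold change 0.60, SE 0.06, edgeR adjusted p = 2.85e-06). In glutathione supply 3 of 7 rose and 1 fell. GCLC, the catalytic subunit of the rate-limiting step of glutathione synthesis, went from 59.1, 58.8 and 60.2 to 95.6, 93.7 and 109 CPM (0.74, SE 0.07, edgeR adjusted p = 2.01e-06). In neither case did the genotypes overlap.

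Of the genes that make and insert selenocysteine, which all 4 selenocysteine peroxidases need, 2 of 8 rose (background 18.8%) and 3 fell (background 18.7%). SEPHS2, which makes the selenium donor, was at 87.0, 81.5 and 98.4 CPM in WT and at 60.6, 58.6 and 56.4 CPM in the libraries labelled MUL1(−/−) (log2 fold change −0.60, SE 0.08, edgeR adjusted p = 2.47e-05). No direction was shared by this group, whose median was −0.12.

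In the supply and oxidation of polyunsaturated lipids 4 of 13 rose (background 18.8%) and 4 fell (background 18.7%). MBOAT1, a phospholipid acyltransferase, went from 8.47, 9.06 and 7.65 to 3.15, 3.99 and 4.25 CPM (log2 fold change −1.15, SE 0.13, edgeR adjusted p = 5.54e-06). ALOX15B, a lipoxygenase, stayed below 1 CPM, at 0.0866, 0.0919 and 0.0635 in WT and at 0.364, 0.296 and 0.323 in the other genotype (2.00, SE 0.32, edgeR adjusted p = 1.51e-04).

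Of the quinone and biopterin radical traps 2 of 8 rose (background 18.8%) and 2 fell (background 18.7%). VKORC1L1, a vitamin K reductase, was at 54.9, 54.9 and 55.3 CPM in WT and at 42.6, 42.6 and 42.7 CPM in the other genotype (log2 fold change −0.37, SE 0.07, edgeR adjusted p = 4.74e-04). Of the iron genes 4 of 13 rose and 3 fell, beside the same background. TFRC, the transferrin receptor that brings iron into the cell, went from 111, 105 and 140 to 205, 194 and 273 CPM (0.92, SE 0.12, edgeR adjusted p = 3.30e-05).

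**Figure D4:**
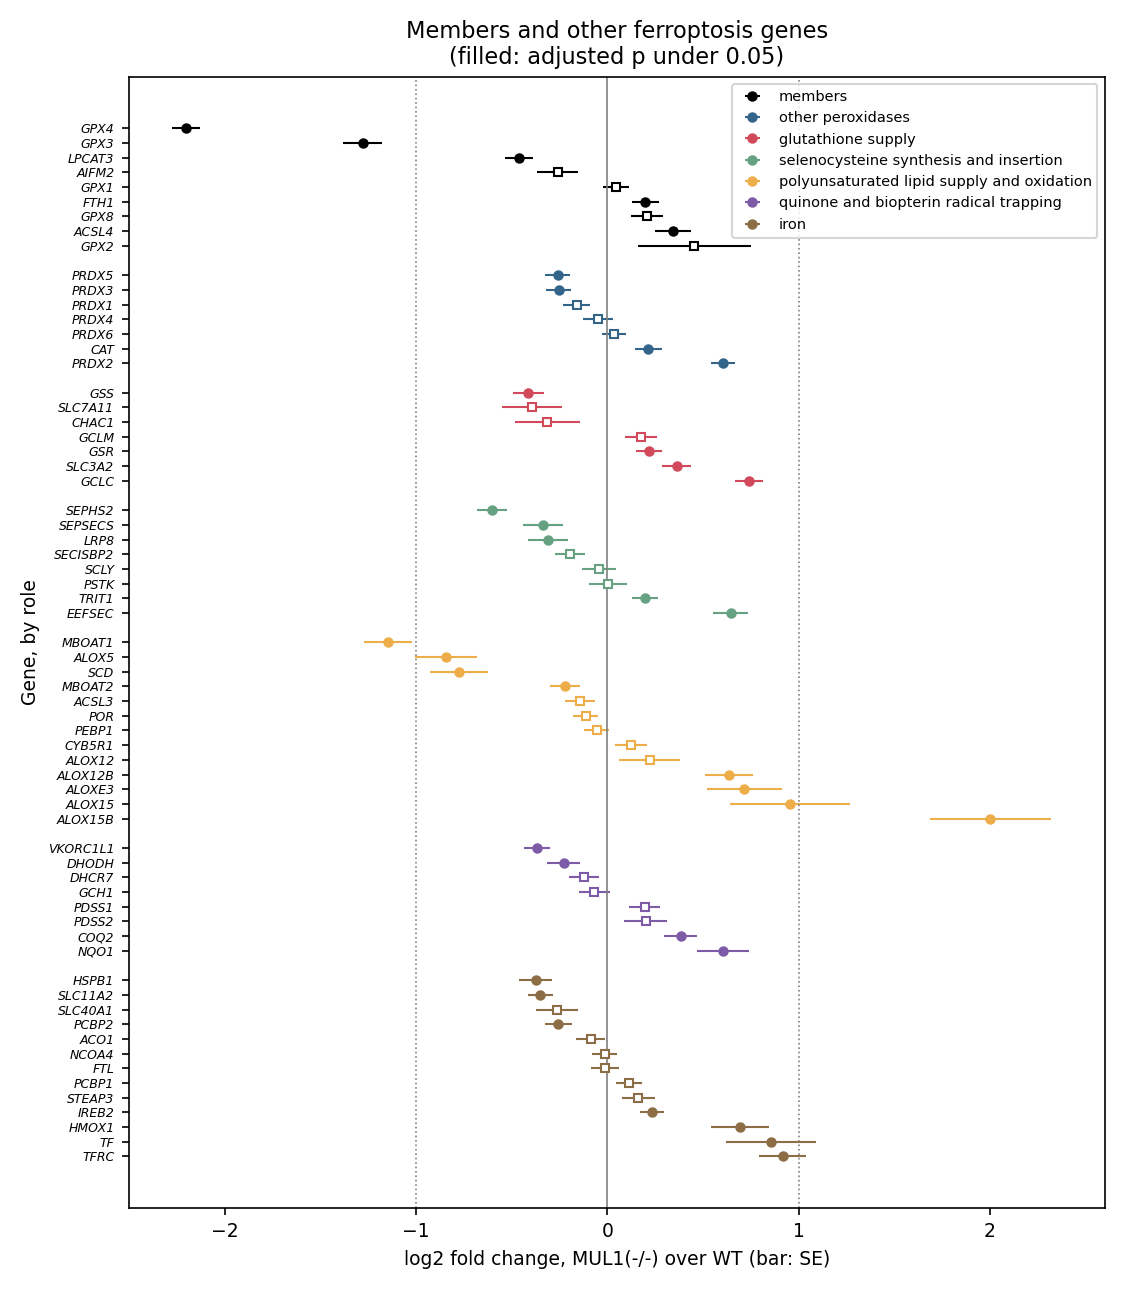
Log2 fold change with its SE (x axis) for the 9 tested members and the 56 other tested genes, grouped by role and colour (y axis). Filled circles passed an edgeR adjusted p of 0.05, open squares did not, and dotted lines mark −1 and 1. GPX4 and GPX3 are the lowest points, and ALOX15B at 2.00 the highest.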

How the data were processed

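For each of the 6 libraries, the deposited table holds unnormalized read counts of the exon bins of a flattened annotation. Per the submitters' processing notes, reads were trimmed with Trimmomatic 0.36 and handled with STAR 2.5.2b on GRCh38; the counting program is not given in the sources used here. A read touching several bins is counted in each, and strand was not used: 12 pairs of bins on the same bases of opposite strands had a median ratio of 1.0. A gene's count was the sum of its bins. Bins of joined identifiers were given to the gene whose GENCODE 29 exon alone touches them, and bins given to no gene held 4.37% of counts. Replicates differed by 2.95 to 10.8 times counting noise, so each was kept.

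Genes were tested with edgeR 4.0.16 (R 4.3.3; TMM, filterByExpr, quasi-likelihood test, Benjamini-Hochberg over 25125 genes) and bins with diffSpliceDGE over 313195 bins. Thresholds were an adjusted p of 0.05 and an absolute log2 fold change of 1. DESeq2 1.42.0 and limma 3.58.1 gave alternatives. On simulated counts for 25125 genes, edgeR recovered all 200 changed genes with 4 false calls. The planted changes were all larger than the fold change threshold, in genes of at least 1 CPM, and calls used both thresholds. Smaller changes, and calls by the adjusted p alone, were not simulated. Named are all members, the gene with the smallest p in each role and those past both thresholds, and the 5 nearest tested neighbours of GPX4 on each side and those past both thresholds. The members and lists were chosen with earlier results of these data known.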

Additional observations from a re-analysis of the deposited data

How the results depend on the processing

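GPX4 stayed between −2.26 and −2.13 and GPX3 between −1.39 and −1.17 in all 15 alternatives to the gene test, both past the threshold in each, and LPCAT3 stayed past the adjusted p in all 15. The members called lower were 2 to 3 and those called higher 0, or 2 by the adjusted p alone. GPX1 ranged from −0.0015, without replicate 3 of the libraries labelled MUL1(−/−), to 0.11 with 1 library left out. By the adjusted p alone, ACSL4 passed in 13, FTH1 in 9, and GPX8 and AIFM2 in 4 each. The wider genes called higher were 2 with library totals, 0 with at least 1 CPM in 3 samples, 0 with the most counted bin of each gene, 17 by the adjusted p alone and 1 to 3 when 1 library was left out. Those called lower were 15 by the adjusted p alone and 1 to 2 with 1 library left out.

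The neighbours' median was −1.29 with 5 genes on each side, −0.92 with 20, −0.88 with protein-coding neighbours only (chosen after seeing the data), −0.98 with library totals and −1.20 to −0.97 with 1 library left out. GPX4 relative to them was −1.03 with 5 genes on each side, −0.87 with protein-coding neighbours and −1.38 to −1.21 with 1 library left out. The neighbours called lower were 6 of 10 and 20 of 40 in these windows. For bin 9 of GPX4, in the alternative first exon, the share of the gene differed by −0.88 on the log2 scale (exact permutation p = 0.1), and 8 refits of the bins gave −1.01 to −0.75. The cause of these shifts was not tested.

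With the replicate number as a block, AIFM2 passed (edgeR adjusted p = 0.0237), GPX4 was at −2.20, and 2 members and 11 neighbours were called lower, as without it. Same-numbered libraries correlated at −0.08, 0.16 and 0.10, so the numbers were not taken to pair them. Library totals moved the median of all genes from −0.01 to 0.06. GPX7 did not pass the filter on low counts.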

Other observations

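The lipoxygenase genes were looked at together after their values were seen. Of the 6 tested, ALOX12B, ALOX15, ALOX15B and ALOXE3 rose by the edgeR adjusted p (background 18.8%) and ALOX5 fell (background 18.7%), while ALOX12 was at a log2 fold change of 0.22 (edgeR adjusted p = 0.302). ALOX5 lies on chromosome 10 and the others on chromosome 17, where ALOX15B, ALOX12B and ALOXE3 lie between 8039017 and 8119047. Gene family and position therefore cannot be told apart for them. ALOX12B was at 5.35 ± 0.317 CPM in WT and 8.33 ± 1.34 CPM in the libraries labelled MUL1(−/−) (SD, n = 3 each). The other genes that rose were low. From WT to the other genotype, mean CPM went from 0.208 to 0.402 for ALOX15, 0.0807 to 0.327 for ALOX15B and 0.888 to 1.46 for ALOXE3. Shared bins held 77.0% of the ALOX12B counts, and ALOX15 did not pass with the replicate block (edgeR adjusted p = 0.0531). ALOX5 went from 4.36 ± 0.942 to 2.43 ± 0.317 CPM.

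SCD, the desaturase that makes monounsaturated fatty acids, fell by 0.78 on the log2 scale (SE 0.15, edgeR adjusted p = 8.61e-04). It was at 211, 207 and 196 CPM in WT and at 139, 141 and 79.3 CPM in the libraries labelled MUL1(−/−), so replicate 3 was the lowest.

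SLC7A11, the cystine carrier of glutathione supply, was at 23.2, 24.7 and 17.9 CPM in WT and at 12.3, 16.7 and 21.1 CPM in the other genotype. Those ranges overlap (log2 fold change −0.39, SE 0.16, edgeR adjusted p = 0.0610).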
